A study of Mus musculus with 8 samples.

Results

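The canonical, or replication-dependent, histone genes of mouse embryonic fibroblasts are described here as they appear in libraries made from poly(A)-selected RNA. The members were chosen by name: every protein-coding gene of the deposited count table whose GENCODE M21 symbol starts with Hist1h, Hist2h, Hist3h or Hist4h. This gave 59 genes among the 39017 gene identifiers of the table, namely 6 genes of linker histone H1, 18 of H2A, 15 of H2B, 7 of H3 and 13 of H4. A further 8 genes that the same name rule finds in GENCODE M21 are not analysed here. The rule itself used no measured value, but it was chosen with earlier results of these data known.

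The cells were fibroblasts from E13.5 mouse embryos, of control genotype or Mettl3 knockout. Mettl3 is the catalytic subunit of the enzyme that writes N6-methyladenosine (m6A) on mRNA. Per the labels, the gene was removed with a Cre recombinase that 500 nM 4-hydroxytamoxifen activated over 48 h, and the loss of protein and of m6A was checked after 7 days; the cell type or promoter that drives Cre, and whether control cells also received the drug, are not given in the sources used here. Each genotype had 2 total poly(A) RNA libraries from unstressed cells, and 2 libraries of poly(A) RNA from a stress-granule-enriched pellet of cells treated with 500 µM sodium arsenite for 30 min. These are called control total, control granule, knockout total and knockout granule, and their 2 libraries are labelled biological replicates. A granule library therefore differs from a total library in arsenite, in centrifugation and in the pool of RNA taken, and these cannot be told apart here.

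Canonical histone genes supply the nucleosome core (H2A, H2B, H3, H4) and the linker histone (H1) that package newly made DNA, and most of them are transcribed in S phase. Most of their pre-mRNAs have no introns, and their mRNAs normally end in a conserved stem-loop, bound by the protein SLBP, instead of a poly(A) tail. The U7 small nuclear ribonucleoprotein guides the cleavage just after the stem-loop, and the mRNA is degraded when replication stops. Some canonical genes can also use a downstream poly(A) signal, in particular in cells that leave the cycle. Since both kinds of library were made with oligo(dT) beads, a count here reports the part of a histone mRNA pool that the beads retained, not the whole pool.

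The stem-loop is shown first because it is the element that replaces the tail. It was searched as a 6-base stem that starts with GG, a 4-base loop that starts with TT, and the exact complement of the stem, downstream of the stop codon in GENCODE M21 transcripts. It was found in 40 of the 59 members (67.8%) and in 51 of 21842 other protein-coding genes (0.234%). For a member any annotated transcript was searched, and for each other gene the longest one only, so the shares are not fully alike. Capitals mark its 16 bases, with genome positions of the capitals on build GRCm38.

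Hist1h1c, H1, chr13:23739512-23739527, plus strand: caaaaGGCTCTTTTCAGAGCCaccactc
Hist1h2ae, H2A, chr13:23570668-23570683, minus strand: acaaaGGCTCTTTTCAGAGCCattcact
Hist1h2bg, H2B, chr13:23571843-23571858, plus strand: ccaaaGGCTCTTTTCAGAGCCacccata
Hist1h3c, H3, chr13:23745047-23745062, minus strand: aaaaaGGCTCTTTTAAGAGCCacctaag
Hist1h4d, H4, chr13:23581950-23581965, plus strand: ccaaaGGCCCTTTTCAGGGCCactacct
Hist1h4i, H4, chr13:22040966-22040981, minus strand: ttaaaGGCCCTTTTTAGGGCCaccacaa

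The stem divided the classes. All 29 stem-loops of H1, H2A, H2B and H3 genes had the stem GGCTCT, and all 11 of H4 genes had another, GGCCCT in 9 and GGTCCT in 2. The most frequent form, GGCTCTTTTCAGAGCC, was shared by 23 members. The stem-loop began 21 to 58 nt after the stop codon, with a median of 31.5 nt.

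The annotated 3' ends differed more than the stem-loops did. In 20 members the annotated transcript ended within 60 nt of the stem-loop, and in 20 it ran further, by 840 nt in Hist1h1c and by 1643 nt in Hist3h2a. A further 7 members had bases after the stop codon but no such stem-loop in them, and 12 were annotated up to the stop codon alone, so that their 3' ends could not be searched. Reads past the stem-loop could be counted only where the annotation used in the counting extends there, and it may differ from GENCODE M21.

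**Figure D1:**
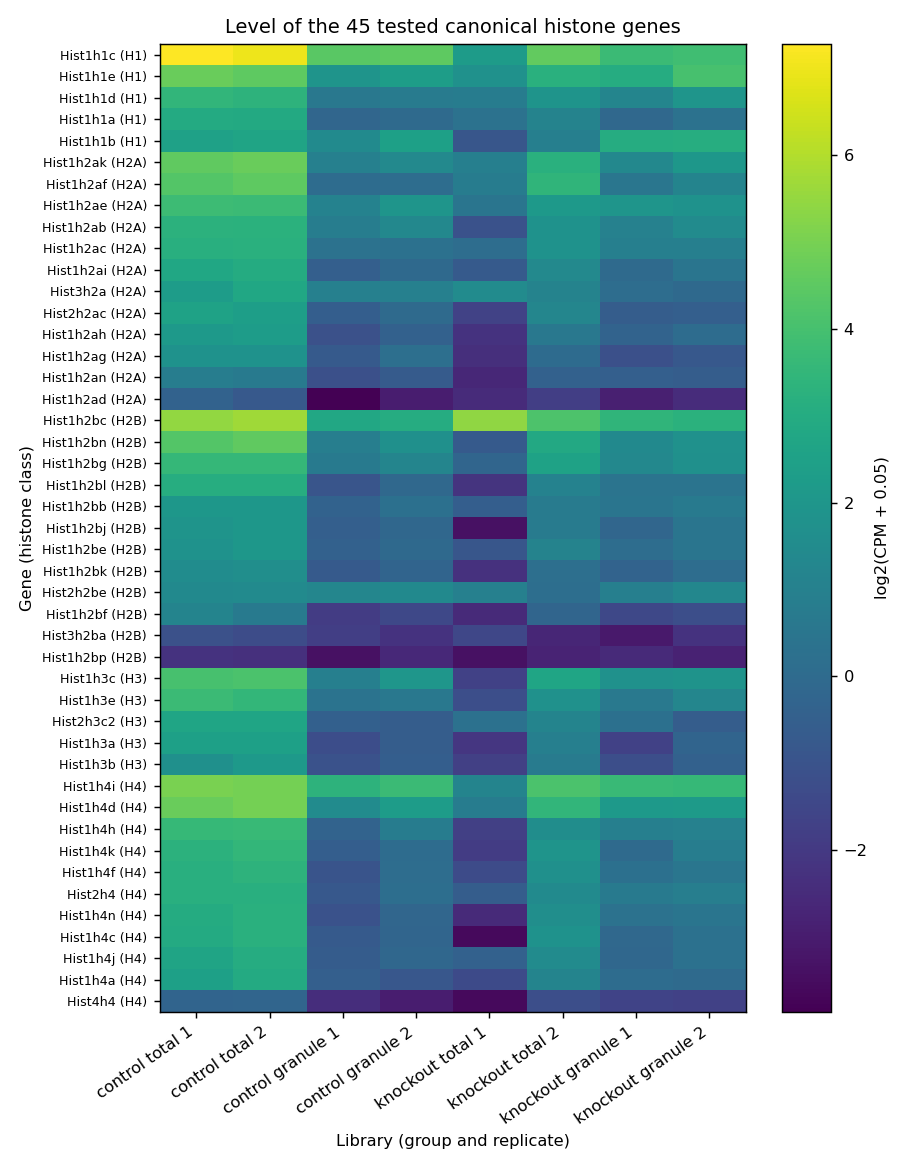
Level of each of the 45 tested canonical histone genes (rows, with histone class) in each of the 8 libraries (columns), as log2 of CPM plus 0.05, ordered by class and by level in control total RNA. The control total columns are the brightest for nearly all genes, the first knockout total column is the darkest for most H3 and H4 genes, and Hist1h2bc stays bright in it.

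Upstream of the start sites, the RefSeq table (GRCm38.p6) held 53 of the members, each with 250 bases before the start. Both strands were searched for the octamer (ATTTGCAT), the linker histone box known as the H1 box (AAACACA), the CCAAT box by those letters, and the TATA box in the form TATAAA, none of which contains another. The octamer stood in 7 of 17 H2A and 4 of 13 H2B promoters, in none of the H1, H3 and H4 promoters, and in 1.6% of all 32851 promoters of the table. The H1 box stood in 4 of 5 H1 promoters, against 6.25% of all promoters. The CCAAT box was found in 42 of the 53 (33.8% of all promoters) but in 3 of 12 of H4. The TATA box was found in 25 of the 53 (12.4% of all). The promoters below are of the most abundant member and of an H2B gene whose window overlaps that of the H2A gene Hist1h2ae, which is read from the other strand. Capitals mark the motif matches.

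Hist1h1c, chr13:23738557-23738806, plus strand: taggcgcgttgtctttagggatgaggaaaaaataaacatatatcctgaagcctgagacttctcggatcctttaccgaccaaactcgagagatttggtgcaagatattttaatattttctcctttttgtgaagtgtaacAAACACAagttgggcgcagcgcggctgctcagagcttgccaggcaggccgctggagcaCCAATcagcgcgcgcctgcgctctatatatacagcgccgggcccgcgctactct
Hist1h2bg, chr13:23571150-23571399, plus strand: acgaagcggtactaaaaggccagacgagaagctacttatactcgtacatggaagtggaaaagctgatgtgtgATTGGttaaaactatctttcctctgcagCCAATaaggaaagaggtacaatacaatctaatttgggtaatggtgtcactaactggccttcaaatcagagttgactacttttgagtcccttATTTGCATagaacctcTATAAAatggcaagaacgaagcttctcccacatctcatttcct

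The members lie on 4 chromosomes: 47 on chromosome 13, 9 on 3, 2 on 11 and 1 on 6. On chromosome 13 they form a block of 20 genes between positions 21715763 and 22043676 and another of 27 genes between 23531050 and 23934851. A total of 45 members passed the filter on low counts that was applied to all genes and were tested. The other 14 never exceeded 0.119 CPM, reached by Hist1h1t, the testis H1, at 8 counts at most in any library. Of these, 6 had 0 counts in all 8 libraries (Hist1h2bq, Hist1h2br, Hist2h2aa1, Hist2h2aa2, Hist2h3b and Hist2h3c1), which allows up to 0.0446 CPM per gene in the shallowest library. In these 6, at most 0.173% of the 100-base words of the transcript occur in no other gene's transcripts, against 7.35% to 100% in the 53 members with counts, so they could hardly have received uniquely assigned reads. Among the tested members, 14 had under 50% unique words, and counts of such near-identical copies are uncertain. The exons of 23 members overlap another annotated gene, in 10 cases one of the table; how strand was handled in the counting is not given in the sources used here, so reads of the 2 genes cannot be told apart.

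The libraries held 67257220 to 123508539 counts, and CPM gives a gene's counts relative to that total. Mettl3 itself checked the labels: it fell in knockout total RNA (log2 fold change -1.91, SE 0.27, edgeR quasi-likelihood adjusted p = 0.0345) and in the knockout granule fraction (-1.38, SE 0.26, adjusted p = 0.0208). All 12 fibroblast markers were tested, and their summed level was 6708 to 10205 CPM. The markers of other cell types ranged, in summed CPM, from 57.7 to 170 for 4 epithelial, 6.0 to 18.1 for 4 endothelial, 53.9 to 106 for 5 haematopoietic, 4.25 to 40.04 for 4 neural and 0.0 to 0.3 for 5 male germ cell genes. The share of counts from mitochondrially encoded genes was 7.60% in knockout total replicate 1 and 6.16% and 8.81% in the knockout granule libraries, against 0.59% to 0.88% in the other 5. Knockout total replicate 1 stood apart in the members too. Counts of called members or their medians, and part of the results of the gene lists, are also given without it and without knockout total replicate 2. Such a fit leaves 1 library in the knockout total group, whose spread is then taken from the other groups.

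In control total RNA the members were detected at 586 and 588 CPM in sum, and the replicates differed by less than 2-fold for every tested member. Per kilobase of exon, Hist1h1c, a linker histone gene, was the highest with 91.4 CPM per kb (SD 11.99, n = 2). It was followed by Hist1h2ak with 64.2 ± 5.6, Hist1h2bn with 56.8 ± 8.1 and Hist1h2af with 53.3 ± 4.8 CPM per kb, core histone genes whose SD ranges overlap from one to the next. Hist1h4i with 43.6 ± 1.7 and Hist1h2bc with 41.7 ± 3.8 CPM per kb came next and did not differ beyond their spread. Hist1h1e, the second H1 gene by counts, has a long annotated end, and a level per kb depends on such annotation. Of the sum, H1 genes gave 207 and 176 CPM, H4 genes 127 and 140, H2B genes 104 and 115, H2A genes 104 and 112, and H3 genes 44.9 and 45.1 CPM.

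The first comparison asks which mRNAs the arsenite granule fraction of control cells holds more or less of than total RNA. Canonical histone reads were fewer in it: their sum was 81.7 and 108 CPM, against 586 and 588 CPM in control total RNA, a ratio of means of 6.18. In bulk RNA, fewer cells of a type and less RNA per cell cannot be told apart. The 21 members called at an adjusted p under 0.05 were all lower, against 4.17% of all 18952 genes tested (edgeR quasi-likelihood test, Benjamini-Hochberg adjustment). Of the 45 tested members, 44 were lower in both granule libraries than in both total libraries, against 43.0% of all genes. The median log2 fold change was -2.69 over the tested members and -0.06 over all genes. The called members comprised 4 of 5 tested H1, 7 of 12 H2A, 3 of 12 H2B, 2 of 5 H3 and 5 of 11 H4 genes.

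Hist1h1c was present at 156 and 129 CPM in control total RNA and at 21.3 and 22.6 CPM in the granule libraries. It was 5.98-fold lower (log2 fold change -2.58, SE 0.60, edgeR adjusted p = 0.0374), and the groups did not overlap. The largest called change was that of the H2A gene Hist1h2af, with 19.9 and 22.6 CPM in total RNA and 1.01 and 1.05 CPM in the granule fraction, 18.9-fold lower (log2 -4.24, SE 0.74, adjusted p = 0.0180). Next came another H2A gene, Hist1h2ad, at -3.57, which was low throughout (0.729 and 0.538 against 0.0186 and 0.0760 CPM, 2 and 9 counts in the granule libraries). The other strongest called changes were in core histone genes, Hist1h4f at -3.52, Hist1h2bl at -3.50 and Hist1h4a at -3.37. Hist1h2bl, for example, fell from 8.37 and 8.38 CPM to 0.475 and 0.878 CPM.

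Among the called members with the smallest changes were Hist1h2bc (log2 -2.53), Hist1h1e (-2.37), Hist1h2ae (-2.07), Hist1h2bb (-1.98) and Hist3h2a (-1.43). Hist1h1e shares exonic sequence with Hist1h2be and a predicted gene, so its count is uncertain. Hist3h2a, an H2A gene outside the large clusters that overlaps Trim17, was at 4.80 and 6.74 CPM in total RNA and at 1.95 in each granule library. Abundant members that did not pass the test were Hist1h4i (log2 -1.30, SE 0.71, adjusted p = 0.258), Hist1h2bn (-2.95, SE 0.91, adjusted p = 0.0760), Hist1h3c (-2.41, SE 1.06, adjusted p = 0.170) and Hist1h2bg (-2.49, SE 0.73, adjusted p = 0.0655).

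A pair of genes stood outside the common decrease, here chosen after their values were seen, except Hist1h1b, which was named for its level. Hist1h1b, an H1 gene, had 5.61 and 6.13 CPM in total RNA and 2.76 and 5.57 CPM in the granule fraction (log2 -0.37, SE 0.54, adjusted p = 0.683). Hist2h2be, an H2B gene with 2192 annotated nt after its stop codon and no stem-loop found in them, had 2.62 and 2.69 CPM in total RNA and 2.34 and 2.63 CPM in the granule fraction (log2 0.03, SE 0.40, adjusted p = 0.972). In CPM its groups overlapped, as those of no other tested member did. The groups of Hist1h1b were only just apart, at 5.57 against 5.61 CPM.

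The medians were negative for every kind of annotated end and in both blocks of chromosome 13. The median log2 fold change was -2.68 over 14 tested members that end at the stem-loop, -2.61 over 18 that run past it, -3.10 over 9 with no bases after the stop codon and -2.76 over 4 with no stem-loop found. It was -2.91 in the first and -2.69 in the second block of chromosome 13. Where the poly(A) signal AATAAA, or its frequent variant in which ATTAAA is read, stood within 50 nt of the annotated end, it was -2.08 over 13 members, and -2.80 over the other 32. Short genes outside the members changed less: protein-coding genes of 500 to 1000 exonic bases had a median of -0.44 over 432 genes, while 17 members of that length had -2.68.

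The count of called members depended on single libraries. With any of the 4 control libraries left out edgeR called 0 members, at a median of -2.49 to -2.92, and at most 0.353% of all genes were called lower. With either knockout granule library left out, 4 were called, against 1.05% and 1.14% of all genes. With knockout total replicate 1 or 2 left out, 41 were called, all lower, against 19.1% and 17.7% of all genes.

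RNAs that carry no poly(A) tail moved with the members. They are RNA polymerase III transcripts and small noncoding RNAs such as Rn7sk, Rpph1 (the RNA of RNase P), Rmrp and Scarna2, and 14 of 16 listed were tested. In the control granule fraction 4 were called lower and none higher, against 4.17% and 5.89% of all genes, with a median log2 fold change of -2.86: Rmrp -4.63, Scarna2 -3.91, Rn7sk -2.88 and Rny3 -2.45. Rn7sk, the RNA scaffold that holds the elongation factor P-TEFb inactive, had 205 and 273 CPM in control total RNA and 29.7 and 29.5 CPM in the granule fraction. The other 15 together had 84.4 and 98.0 CPM in control total RNA and 5.48 and 8.38 CPM in the control granule fraction. The part of poly(A) selection in the lower histone reads was not tested. The neural marker Tubb3, a beta-tubulin, fell as well (39.9 and 31.5 against 3.84 and 4.37 CPM; log2 -3.00, edgeR adjusted p = 0.00983). Of the 3 neural markers tested it was the only one lower there: Sox10 and Elavl3, under 0.3 CPM in these 4 libraries, had higher means in the granule fraction and were not called. The endothelial Kdr (-1.12, 1 of 4 called, list median -0.95) and the haematopoietic Ptprc (-1.13, 1 of 5 called, list median -0.51) fell too. Of the 12 fibroblast markers, 1 was called higher and 2 lower, with a list median of -0.21. The part of these markers in the result was not tested.

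**Figure D2:**
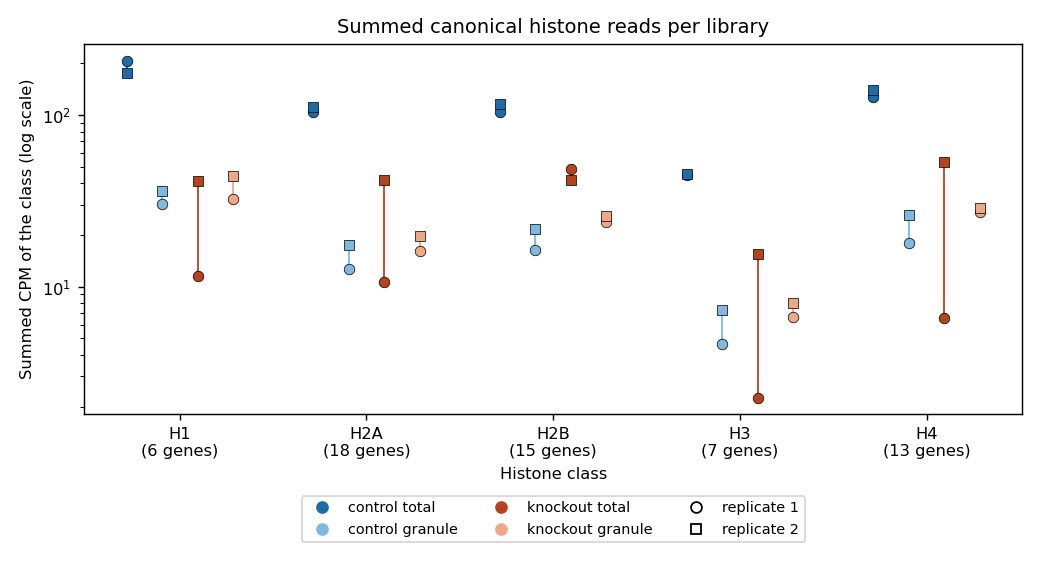
Summed CPM of each histone class (log scale) in every library, with circles for replicate 1, squares for replicate 2 and a line joining the replicates of a group. In every class the control total points lie highest, and the knockout total replicates lie far apart except in H2B (48.6 and 41.9 CPM).

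The second comparison asks what loss of Mettl3 changes in total RNA of unstressed cells. Canonical histone reads were fewer in both knockout libraries, but by unequal amounts: 79.5 CPM in replicate 1 (95% Wilson interval 78.0 to 81.1) and 194 CPM in replicate 2 (191 to 197), against 586 and 588 CPM in control. These intervals cover counting error only. The mean of the controls was 7.38 times replicate 1 and 3.03 times replicate 2. Every one of the 45 tested members lay lower in CPM in both knockout libraries than in both control libraries, against 27.6% of all genes. The median log2 fold change was -2.13, and 0.02 over all genes. These CPM lack the scaling factors of the fit. Without knockout total replicate 2, the fit gave Hist1h2bc, the exception, a log2 fold change of 0.17.

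None of these changes passed the test across all genes. By edgeR's quasi-likelihood test 0 of 45 members had an adjusted p under 0.05, against 0.137% of all genes lower, and 37 had an unadjusted p under 0.05, all lower, against 8.95% of all genes. DESeq2 called 34 of 44 members, all lower, against 3.63% of all genes. The smallest edgeR adjusted p was 0.0549, of the H1 gene Hist1h1a (7.61 and 7.49 CPM in control, 1.21 and 2.13 CPM in knockout, log2 -2.10, SE 0.35). Its knockout replicates differed by a log2 ratio of 0.59. Without knockout total replicate 1, 28 of 46 members were called lower at a median of -1.43, against 2.56% of all genes. Without knockout total replicate 2, 40 of 46 were called lower at a median of -3.59, against 20.9% of all genes.

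Hist1h1c went from 156 and 129 CPM in control to 4.75 and 24.0 CPM in knockout total RNA (log2 -3.28, SE 0.62, edgeR adjusted p = 0.0741), the lowest value among the members. The H4 gene Hist1h4i had 32.6 and 30.9 CPM in control and 2.20 and 17.6 CPM in knockout (log2 -1.66, SE 0.72). Hist1h4d, another H4 gene, had 26.3 and 31.0 against 1.71 and 11.1 CPM (log2 -2.13, SE 0.69). In each of them replicate 1 was the lower by several fold.

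The same order held in other classes. The H2A gene Hist1h2ak had 23.7 and 26.8 CPM in control and 1.90 and 9.28 CPM in knockout. The H2B gene Hist1h2bn had 19.4 and 23.8 against 0.567 and 7.29 CPM. The H3 gene Hist1h3c had 16.5 and 17.5 against 0.259 and 6.46 CPM. The 5 smallest decreases, from -0.49 to -1.08, were in Hist1h2bc, Hist2h2be, Hist3h2ba, Hist1h2bp and Hist3h2a, which are H2B and H2A genes.

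Over the tested members, the median log2 ratio of replicate 2 to replicate 1 in knockout total RNA was 2.22, and it was -0.0037 over all genes. In 41 of 45 members replicate 2 was the higher, and 39 differed by more than 2-fold, as 36.8% of all genes did. In control total RNA the median was -0.07, and no member differed by more than 2-fold. The widest gap was in Hist1h4c, at 0.0324 and 3.50 CPM, the former from 4 counts; this gene and Hist1h1a are named here after their values were seen.

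The 4 members that went the other way were Hist1h2bc, Hist3h2ba, Hist2h2be and Hist3h2a, singled out here after their values were seen. Hist1h2bc, an H2B gene, had 45.1 and 51.3 CPM in control and 43.3 and 18.2 CPM in knockout total RNA. It gave most of the H2B sum of replicate 1 (48.6 CPM). Hist2h2be had 1.96 and 1.07 CPM there, Hist3h2a 2.82 and 2.16 CPM, and Hist3h2ba 0.308 and 0.109 CPM. Hist1h2bc and Hist2h2be have 742 and 2192 annotated nt after the stop codon with no stem-loop found, and Hist3h2a and Hist3h2ba are annotated 1643 and 169 nt past theirs. Such ends were not particular to these 4. Hist4h4, Hist1h1d and Hist1h2ac, annotated 2445, 4884 and 2010 nt past their stem-loops, had log2 ratios of 2.30, 0.89 and 1.48. Hist1h4a, also with no stem-loop found, had 2.33.

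GC content moved with the replicate difference. Among other genes the median log2 ratio of replicate 2 to 1 was -0.92 under 45% GC and 1.76 at 65% GC and above. The members were GC-rich, with a median of 56.5% against 50.2% over all tested genes. In each GC bin the members' median lay above that of the other genes, for instance 2.32 for 11 members against 0.80 for 3560 genes at 55 to 60% GC, and 1.48 for 7 members against -0.34 for 4894 genes at 45 to 50% GC. With the GC trend of each library removed, 44 of 45 members were lower in knockout total RNA, 10 were called (1.33% of all genes), and the median was -1.90.

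**Figure D3:**
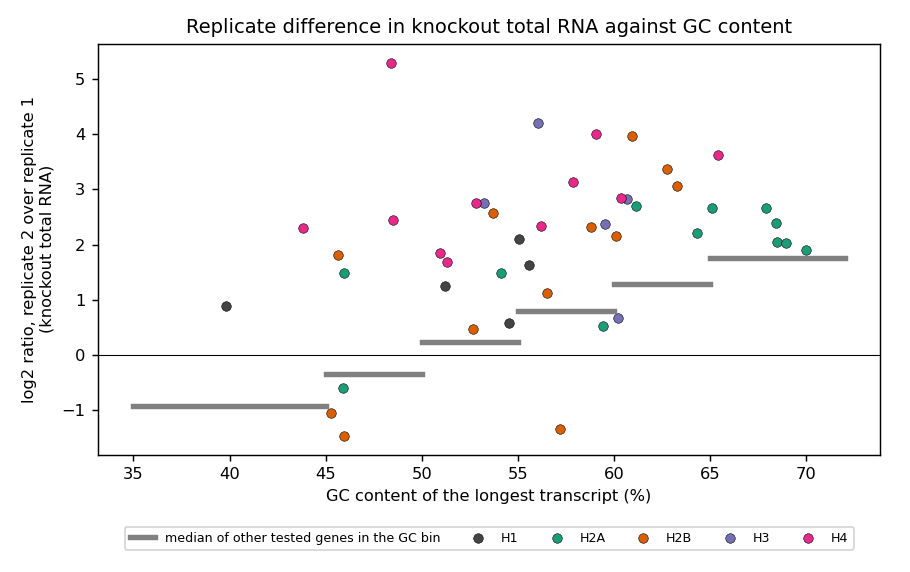
Log2 ratio of replicate 2 to replicate 1 in knockout total RNA for each of the 45 tested members (points, coloured by class) against GC content, with grey bars for the median of other tested genes in each GC bin; the outermost bins extend past the axis. Most points lie above the grey bars, and Hist1h2bc, Hist2h2be, Hist3h2a and Hist3h2ba lie below 0.

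The RNAs without a tail split in the same library. Their median log2 ratio of replicate 2 to replicate 1 was 1.68, and 13 of 14 were higher in replicate 2. Rn7sk was nearly alike in both (228 and 271 CPM) and close to control. The other 15 together had 16.4 CPM in replicate 1 and 97.7 CPM in replicate 2, against 84.4 and 98.0 CPM in control; leaving out Rn7sk was chosen after its values were seen. In replicate 2 the sum of these 15 lay between the control sums, and the members were at 194 CPM against 586 and 588 CPM. Rpph1 had 60.4 and 65.4 CPM in control and 3.34 and 70.1 CPM in knockout total RNA. This gene thus gave most of the sum in both control libraries and in replicate 2. The part of poly(A) selection in these values was not tested. Between genotypes in total RNA, edgeR called 0 of the 14, and 1 had an unadjusted p below 0.05. With replicate 1 left out the median of these 14 was -0.07, and without replicate 2 it was -2.46.

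In the granule fraction the members' sums overlapped between genotypes, and no member was called. They summed to 106 and 126 CPM in knockout granule and 81.7 and 108 CPM in control granule libraries, and the ratio of means was 1.22. By edgeR 0 of 45 members were called, against 3.66% of all genes called lower and 5.79% called higher. At an unadjusted p under 0.05 there was 1 lower member (12.4% of all genes) and 1 higher (15.6%), and DESeq2 called 1 lower (6.98%) and 1 higher (8.67%). In 23 of 45 members both knockout libraries lay above both control libraries, against 44.4% of all genes. In 3 members both lay below, against 32.6% of all genes. The median log2 fold change was 0.42, and 0.08 over all genes. The largest differences were Hist1h1e at 1.38 (3.73 and 5.04 against 8.07 and 16.2 CPM; SE 0.50, adjusted p = 0.120) and, downward, Hist3h2a at -1.07 (SE 0.33, adjusted p = 0.0814). With mitochondrially encoded genes left out of the library totals, the sums were 113 and 139 CPM in knockout and 82.2 and 108.9 CPM in control granule libraries, and these do not overlap. Leaving out knockout total replicate 1, 9 of 46 members were called, 7 of them higher (19.6% of all genes), and without replicate 2, 8 were called, 5 of them higher (17.9%).

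The RNAs without a tail were higher in the knockout granule fraction in 14 of 14, with a median log2 fold change of 1.43. The one called was Rnu12, an RNA of the minor spliceosome (0.0 and 0.076 against 0.642 and 1.01 CPM; log2 4.27, SE 1.01, edgeR adjusted p = 0.0392). Without knockout total replicate 1 the median of the 14 was 1.41, and without replicate 2 it was 1.37. In the knockout's granule fraction against its total RNA their median was -0.66, with 10 of 14 lower, and Rn7sk alone was called, lower at 51.2 and 78.7 CPM against 228 and 271 CPM. Their granule-to-total ratio differed between genotypes by a median of 2.30, with 13 of 14 higher; edgeR called 0 and 6 had an unadjusted p under 0.05. The members' medians in these comparisons were 0.42, -0.24 and 2.49. The part of poly(A) selection in them was not tested.

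**Figure D4:**
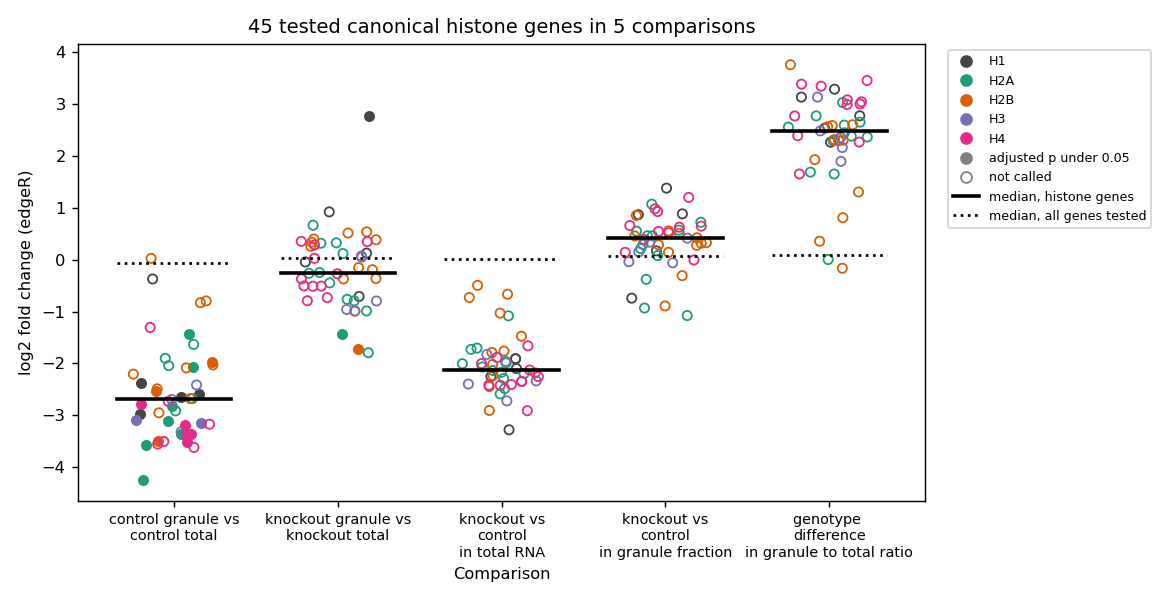
Log2 fold changes of the 45 tested members in the 5 comparisons, coloured by histone class, filled where the adjusted p was under 0.05, with solid lines for their median and dotted lines for the median of all genes tested. The medians are -2.69, -0.24, -2.13, 0.42 and 2.49 from left to right, and filled points appear only in the comparisons of granule with total RNA.

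Within the knockout, granule and total RNA were compared as in control cells. The members summed to 106 and 126 CPM in the granule fraction and to 79.5 and 194 CPM in total RNA, so that the granule values lie between the total ones. By edgeR, 3 of 45 members were called, 1 higher (9.17% of all genes) and 2 lower (8.47%), and the median log2 fold change was -0.24. Hist1h1b, an H1 gene, was higher in the granule fraction, at 8.06 and 8.33 CPM against 0.494 and 1.90 CPM (log2 2.77, SE 0.58, adjusted p = 0.0191). Hist1h2bc was lower, at 10.8 and 9.48 against 43.3 and 18.2 CPM (log2 -1.72, SE 0.45, adjusted p = 0.0362). Hist3h2a was lower too, at 1.05 and 0.923 against 2.82 and 2.16 CPM (log2 -1.43, SE 0.34, adjusted p = 0.0258). The 3 values without knockout total replicate 1 were 2.14, -0.81 and -1.10, those without replicate 2 were 3.74, -2.40 and -1.83, and each was called.

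The direction in this comparison turned on 1 library. Without knockout total replicate 1, 23 of 46 members were called, 21 of them lower, against 16.5% of all genes. Without replicate 2, 28 were called, 25 of them higher, against 23.1% of all genes. The 2 comparisons of granule with total RNA share no library, while those of total RNA and of the granule fraction each share libraries with both.

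The difference between genotypes in the granule-to-total ratio was tested as an interaction term. It was positive in 44 of 45 members with a median of 2.49 (0.09 over all genes), and edgeR called 0 of 45, against 0.401% of all genes called higher. Here 30 had an unadjusted p below that level, all higher, against 11.3% of all genes, and DESeq2 called 21, all higher, against 5.35%. Without knockout total replicate 1, 32 were called (8.31% of all genes), and without replicate 2, 40 (20.6%). The smallest adjusted p by edgeR was 0.0777. The 4 lowest values belonged to the members that had differed in the other direction between the knockout total replicates, which enter both measures: Hist3h2ba (-0.16), Hist3h2a (0.01), Hist2h2be (0.36) and Hist1h2bc (0.81).

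The counts of the gene lists that follow can be read against all genes tested. Called higher and lower were 5.89% and 4.17% in control granule against control total RNA, 9.17% and 8.47% in knockout granule against knockout total RNA, and 5.79% and 3.66% between genotypes in the granule fraction. Between genotypes in total RNA the shares were 0.274% and 0.137%, and in the difference of ratios 0.401% and 0.116%.

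Of the factors that make and degrade histone mRNA, the stem-loop binding protein gene Slbp did not pass the test in any comparison. It had 50.6 and 73.0 CPM in control total, 162 and 151 in control granule, 208 and 94.4 in knockout total and 88.0 and 69.2 CPM in knockout granule libraries (genotype difference in ratio -2.53, SE 0.61, edgeR adjusted p = 0.0904). Among 22 listed factors, 3 rose and 1 fell in the control granule fraction: Casp8ap2 (log2 2.51), which encodes a protein needed for histone gene expression, the cleavage and polyadenylation subunit gene Cpsf2 (1.13), Srrt (1.07), which links the cap complex to RNA processing, and Lsm10 (-1.09), a U7 Sm-like protein. The list's median was 0.23. In the knockout granule fraction against knockout total RNA, Casp8ap2 (2.16) and Srrt (0.89) rose, and Cstf2 (-2.55) and Cpsf3 (-1.09), of the cleavage machinery, fell. Between genotypes, Lsm10 was higher in the knockout granule fraction (log2 2.06, adjusted p = 0.00875), and edgeR called 0 in total RNA (6 had an unadjusted p below 0.05).

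Replication-independent histone variants are made outside S phase as well, mostly from mRNAs that carry tails. Of 12 tested, edgeR called 0 in the control granule fraction (2 at an unadjusted p under 0.05), with a median of -0.39. In the knockout, H2afv rose (1.03) and H3f3b fell (-1.12) in the granule fraction. Between genotypes in total RNA 0 were called (2 at an unadjusted p under 0.05), with a median of -0.23. Their replicates in knockout total RNA differed in the direction of the canonical genes, at a median log2 ratio of 1.11 with 9 of 12 higher in replicate 2.

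Of 18 histone chaperone genes, Atrx (2.73), Nasp (1.58) and Ubn1 (1.36) rose in the control granule fraction. In the knockout, Atrx (2.69) and Ubn1 (1.71) rose and Asf1b (-1.03) fell, and between genotypes in the granule fraction Ipo4 fell (-1.56).

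Genes of S phase replication, with which canonical histone transcription is normally coupled, were not called lower in knockout total RNA with all libraries in the fit. Of 28 tested there, edgeR called 0 in either direction and 6 had an unadjusted p under 0.05, and their median log2 fold change was 0.27, against -2.13 for the members. Their sums were 4875 and 4419 CPM in control total and 4692 and 5155 CPM in knockout total libraries. In the control granule fraction Ccne2 (2.80), Pola1 (2.25) and Rrm2 (1.13) rose. In the knockout granule fraction 7 fell and none rose, among them Mcm4 (-1.49), Rrm2 (-1.35), Mcm2 (-1.10), Mcm7 (-0.88) and Pole (-0.82). Between genotypes in the granule fraction Rrm2 (-2.17), Ccna2 (-1.92) and Mcm4 (-1.34) fell, and Rrm2 was the only one called in the difference of ratios (-2.48, SE 0.33, adjusted p = 0.0390).

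The calls and medians of these lists depended on the knockout total libraries as well. In total RNA between genotypes, the median of the S phase genes was 0.19 without replicate 1 and 0.49 without replicate 2. For the histone mRNA factors it was 0.25 and 0.38, respectively. For the variants it was 0.02 and -1.02, and for the chaperones 0.19 and 0.36. In the knockout granule fraction against knockout total RNA, the S phase median was -0.55 without replicate 1 and -0.81 without replicate 2. In the difference of ratios Slbp was called lower without either library.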

How the data were processed

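The authors deposited raw counts per Ensembl gene for 8 libraries of oligo(dT)-selected RNA read on an Illumina HiSeq, per the labels' protocols. The submitters' processing notes name STAR, DESeq2, GRCm38 and mm10 without a role; the counting program, its strand setting and its treatment of reads with several matches are not given in the sources used here. Gene names, types and positions came from GENCODE M21, promoters from RefSeq (GRCm38.p6). The members and gene lists were chosen with earlier results of these data known.

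Counts were tested in R 4.3.3 with edgeR 4.0.16 (TMM, filterByExpr, robust quasi-likelihood test, 4 group means, 4 residual degrees of freedom). P-values were adjusted by Benjamini-Hochberg over all 18952 genes tested, and a gene was called at an adjusted p under 0.05. The fit was tested on simulated data. With 2 libraries a group, p-values rest on few libraries. CPM is relative to the library's total count, and 3 counts equal 0.0243 to 0.0446 CPM. Whether libraries overlap was judged on CPM, without the TMM factors. Ratios of replicates used log2(CPM + 0.05). Named members are the 12 with the highest mean CPM and the called ones (5 at each end where over 10 were called); of the listed genes, the called ones (3 at each end where over 6). Alternatives were DESeq2 1.42.0, other scaling, no filter, GC trend removal, a replicate block, a fit of the 4 libraries compared alone, and fits without each single library. No unused column of sample values remained.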

Additional observations from a re-analysis of the deposited data

Results flagged for a closer look

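For 10 of the named members the CPM of knockout and control libraries differed in opposite directions in the 2 fractions. Both knockout total libraries lay below both control ones, and both knockout granule libraries lay above both control ones. These CPM lack the scaling factors of the fit. For Hist1h2bc, 1 of the 10, the fit without knockout total replicate 2 gave a log2 fold change of 0.17 in total RNA. Over all genes tested, 27.6% met the first condition and 44.4% the second, and of the 45 tested members 45 and 23 did. The share of all genes that met both was not counted. All of the 10 but Hist1h2bg and Hist1h1b had been called lower in control granule against control total RNA. The control libraries enter both conditions, so the choice of named members favours this pattern. The test of this difference is the interaction term of the edgeR fit, which called none of the 45 tested members at an adjusted p under 0.05. The term was 0.81 on the log2 scale for Hist1h2bc, 2.30 for Hist1h2bg, 2.32 for Hist1h2bb and 2.45 for Hist1h2af. It was 2.78 for Hist1h2ad, 2.996 for Hist1h4a, 3.01 for Hist1h4f, 3.14 for Hist1h1b, 3.29 for Hist1h1e and 3.76 for Hist1h2bl. For Hist1h1b (3.14), both control granule libraries lay below both control total ones in CPM, and both knockout granule libraries above both knockout total ones. The control separation was narrow, and its log2 fold change of -0.37 was not called. A change of direction between genotypes is therefore not shown. The same libraries enter all of these values, and the cause was not tested.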

How the results depend on the processing

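The replicate numbers did not pair the libraries: the correlations between groups of same-numbered deviations from the group means ran from -0.25 to 0.10 (a hint from the data, not the design). With a replicate block, 12 members were called in control granule against control total RNA instead of 21, 1 instead of 3 in the knockout, and none in the other 3 comparisons; of all genes it called 3.07%, 10.0%, and 0.0% to 3.54%. The crossed pairing, added after seeing the data because of the correlation of -0.25 between control total and knockout total, called 0 in knockout against control total RNA.

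The counts of called members under each alternative stand here with the share of all genes called, in either direction. In control granule against control total RNA, 41 members were called with no filter (13.2% of all genes), 33 with GC trend removal (20.8%), 41 with only the groups compared (42.4%) and 36 by DESeq2 (19.6%); leaving out single libraries gave 0 to 41 (0.0% to 40.6%). In knockout granule against knockout total RNA, GC trend removal gave 6 (31.2%), only the groups compared 0 (0.0%), and leaving out libraries 0 to 28 (1.22% to 48.2%). In knockout against control total RNA, no filter gave 39 (11.2%), GC trend removal 10 (3.58%), DESeq2 34 (14.4%) and only the groups compared 0 (0.0%). With single libraries left out, the members' median there ran from -3.59 to -1.43. In the granule fraction, no filter gave 1 (11.2%), GC trend removal 1 (23.6%), only the groups compared 8 (57.3%), DESeq2 2 (15.7%), and leaving out libraries 0 to 9 (0.0% to 39.0%). For the genotype difference in ratio, no filter gave 36 (11.5%), GC trend removal 6 (7.96%), DESeq2 21 (5.35% of all genes were called higher by it), and leaving out libraries 0 to 40 (0.0% to 46.4%). An arm left with 1 library is assumed to vary like the other groups.

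Without knockout total replicate 2, the log2 fold change of granule against total RNA in the knockout was positive for 37 of 46 members, against 19 of 45 with all libraries. It turned positive for 6 of the named members. With each library left out in turn, it ran from -0.75 to 1.25 for Hist1h1c, -0.98 to 1.53 for Hist1h2bg, -1.25 to 2.10 for Hist1h2bn, -1.14 to 1.21 for Hist1h4a, -1.27 to 1.09 for Hist1h4d and -1.35 to 1.52 for Hist1h4f. The lowest values came without knockout total replicate 1, and the cause was not tested. With library size alone, the median of all genes moved from -0.06 to -0.19 in control granule against total RNA and from 0.09 to 0.28 in the difference of ratios, and all 45 members were lower and higher there, respectively. Of the other values of named members and class sums, 1003 kept direction and side of the threshold, 100 lost and 168 gained the call, and 3 class sums moved by over 1 SD when mitochondrially encoded genes were left out of the total. Depth limits the members under about 0.1 CPM, such as Hist1h2ad with 2 counts in a granule library.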
